A study of Saccharomyces cerevisiae with 21 samples.

Results

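Recurrent nuclear positions of the rnh203-K46W mutant are single bases of 1 DNA strand at which a ribonucleotide was recorded in at least 3 of the 5 ribose-seq libraries of that mutant. Positions recorded in all 5 deep libraries of the other mutants (3 of rnh201-G42S and 2 of rnh201-null) were left out. The rule kept 11087 of the 1809729 nuclear positions recorded in any rnh203-K46W library, and of the 6492015 nuclear positions recorded in any of the 17 libraries. Recurrence in rnh203-K46W therefore chose these positions and is given below as a description with no test.

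The libraries came from haploid budding yeast of strain BY4742 (MATα mating type, derived from S288C), grown to stationary phase. There were 5 libraries of rnh203-K46W, 3 of rnh201-G42S and 3 of rnh201-null, against 6 of the wild type (WT), which carries an intact enzyme. The point mutations, orthologous to human disease mutations, were engineered into the genome by the delitto perfetto method. All 4 genotypes share the strain background and the growth. The labels do not say whether libraries of 1 genotype came from separate cultures, so the spread between them may be technical. The genotype field of the K46W libraries names rnh201, but their titles and the series' design name rnh203, and rnh203 was taken. Up to 3 sets of restriction enzymes were used to cut the DNA, and which library received which set is not given in the sources used here.

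DNA polymerases place ribonucleotides into DNA during replication, and ribonuclease H2 (RNase H2) removes them by cutting beside the embedded ribonucleotide. Rnh201 is the catalytic subunit of the yeast enzyme and Rnh203 is an accessory subunit. Mutations in the genes of the human subunits occur in Aicardi-Goutières syndrome, an inherited inflammatory disease. Ribose-seq tags ribonucleotides left at DNA ends after alkaline cleavage and maps each to a base and strand of the genome.

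The value at a position is a normalized enrichment factor, a ratio that behaved as a library constant times reads over DNA depth. Read numbers were recovered from these ratios, and depth differed widely. The rnh203-K46W libraries held 7278 to 1851299 nuclear reads, the rnh201-G42S libraries 975703 to 4102873, the rnh201-null libraries 1435 to 1962365 and the WT libraries 775 to 38576. In a shallow library a single read gives a large ratio: the median nuclear value, which stands for 1 read, was 1681 in rnh203-K46W replicate 2 (7278 reads) and 6.69 in replicate 4 (1851299 reads). Ratios of single reads can therefore not be set against each other between libraries, and read numbers are given beside them. By their mitochondrial profiles the 17 libraries fell into a set A of 10 and a set B of 7, with a mean Spearman correlation of 0.636 within and 0.237 between sets. Replicates 1, 2 and 4 of rnh203-K46W belonged to set A and replicates 3 and 5 to set B. All rnh203-K46W libraries carry numbers of the 300 series, which holds no WT library, so library series and genotype cannot be told apart between these 2 genotypes.

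Most recurrent positions met the rule only just. A value was present in 3 libraries at 10292 positions, in 4 at 722 and in all 5 at 73. Which libraries recorded a position followed their depth: 7864 positions, 70.9% of all, had values in exactly replicates 3, 4 and 5, the 3 deepest. Replicate 4 recorded 10938 of the positions, replicate 5 recorded 10198, replicate 3 recorded 9257, replicate 1 recorded 2814 and replicate 2 recorded 922.

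Read numbers were low on both sides of the rule's edge. The 10292 positions with 3 libraries, just inside, had a median highest read number over the libraries of 3, against 1 at the 96949 positions with 2 libraries, just outside. The highest read number was 1 at 2326 of the 11087 recurrent positions, so these rest on single reads in each library. On the other edge, 394 recurrent positions were held by 4 of the 5 deep libraries of the other mutants, while 79 positions in at least 3 rnh203-K46W libraries were left out because all 5 held them.

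The positions of greatest interest are those found in all 5 rnh203-K46W libraries, and the 12 with the highest median ratio are shown in the plot of enrichment factors by position. Positions are counted from 1 on build sacCer2. No base, sequence or gene is given for them, because no genome of that build was used here.

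The highest median belonged to the minus strand of chromosome X at position 726182, 19.6 kb from the last recorded position of that arm. Its enrichment factor was 17574, 39763, 443, 15759 and 1369.6 in rnh203-K46W replicates 1 to 5, from 123, 26, 10, 2636 and 71 reads. It was the strongest nuclear position of replicate 4. The 3 libraries of set A lay far above the 2 of set B. Outside rnh203-K46W it was recorded at 273 in rnh201-G42S replicate 3 (93 reads) and at 16.5 in rnh201-null replicate 2 (3 reads), and in WT by 1 read in replicate 6 (337).

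The plus strand of chromosome XIII at position 911883, 12.5 kb from the last recorded position of its arm, held the largest single value. Its enrichment factor was 40414, 222763, 1689, 15123 and 13036 in rnh203-K46W replicates 1 to 5, from 334, 172, 45, 2987 and 798 reads. It was the strongest nuclear position of replicate 2 and among the 3 strongest of replicates 1 and 4. All rnh201-G42S libraries recorded it too, at 204, 77.1 and 506 from 16, 9 and 167 reads, but with values far below those of rnh203-K46W. In rnh201-null only replicate 2 did (37.9, 7 reads), and in WT it was recorded in 3 libraries from 1 or 2 reads each. It was 1 of only 2 recurrent positions present in 3 WT libraries.

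Other top positions had their highest value in replicate 5, of set B. Over all 73 positions found in every library, the mean log2 value was higher in set A at 60 and lower at 13. Single reads in the shallow replicate 2 of set A give large ratios and enter these counts. On the plus strand of chromosome V at position 40771 the enrichment factor was 137, 7335, 6886, 1176 and 17800.3 in rnh203-K46W replicates 1 to 5, from 1, 5, 162, 205 and 962 reads. Here the 2 set B libraries held far more reads relative to their depth than replicates 1 and 4 of set A, and the position was among the 3 strongest of replicate 5. On the minus strand of chromosome VII at position 1018096 the values were 334, 7143, 880, 2855 and 11128, from 2, 4, 17, 409 and 494 reads, again highest in replicate 5 of set B. No WT library recorded this position, and rnh201-G42S held it with 1 and 2 reads in replicates 2 and 3.

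The minus strand of chromosome X at position 163953 had 857, 7647, 886, 3928 and 7331 in rnh203-K46W replicates 1 to 5, from 6, 5, 20, 657 and 380 reads, so every library held several reads. The plus strand of chromosome IV at position 1104932 had 3383, 21298, 61.7, 3364 and 107 in replicates 1 to 5, from 17, 10, 1, 404 and 4 reads, with the fewest in the 2 set B libraries. This position was also the second one present in 3 WT libraries, with 1 read each in replicates 1 and 5 and 3 reads in replicate 6.

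Over all 73 positions found in every rnh203-K46W library, the median read number was 4, 2, 4, 123 and 15 in replicates 1 to 5. Between libraries of the same set, Spearman's correlation of read numbers across the 73 was 0.79 for replicates 3 and 5 (set B), and 0.66, 0.34 and 0.22 for replicates 2 and 4, 1 and 2, and 1 and 4 (set A). Between libraries of different sets it was 0.48 for replicates 4 and 5, 0.24 for 3 and 4, 0.17 for 2 and 5, 0.03 for 1 and 3, 0.02 for 2 and 3 and -0.08 for 1 and 5. The 2 highest correlations were within sets, but the ranges of the 2 kinds of pair overlapped. These correlations are descriptions over positions that share the DNA depth of 1 genotype.

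**Figure D1:**
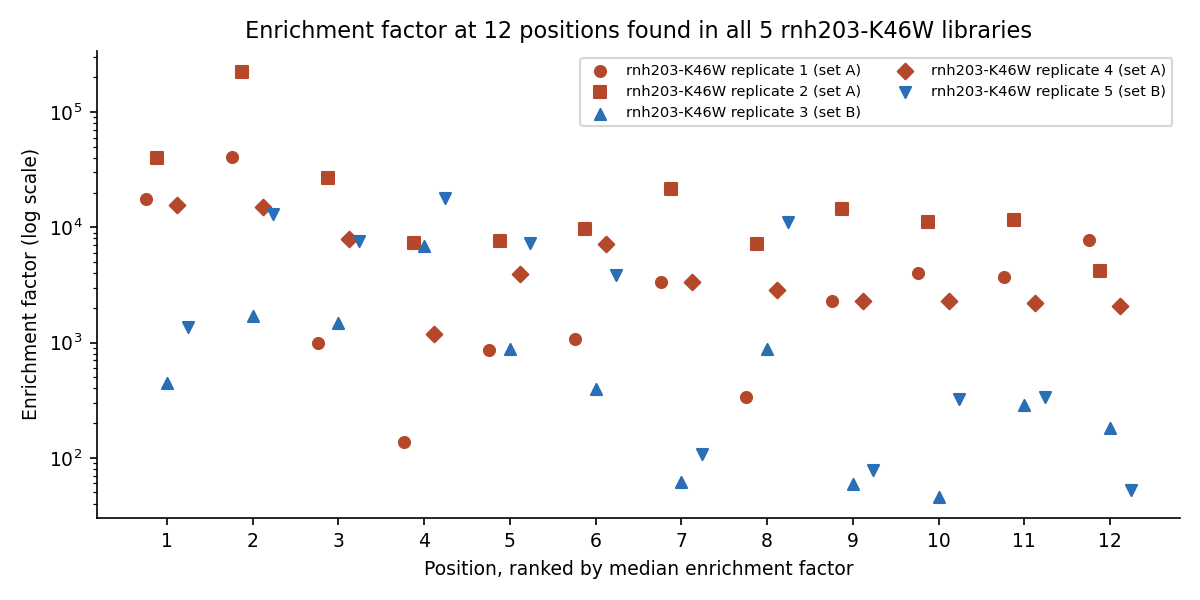
Enrichment factor (log scale) of the 5 rnh203-K46W libraries at the 12 positions found in all of them with the highest medians, ranked by median. Circles, squares and diamonds are set A, triangles set B. Position 1 is chromosome X 726182 and position 2 chromosome XIII 911883, with the highest point at 222763 in replicate 2. Heights of low read numbers reflect library depth, since 1 read stands near 1681 in replicate 2 and near 6.69 in replicate 4.

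Recurrence within rnh203-K46W went with detection in the other genotypes. The rule used no WT value, and of rnh201-G42S and rnh201-null it used only presence in all 5 deep libraries, to leave positions out. The recurrent positions had a value in rnh201-G42S at 5024 (45.3%), in rnh201-null at 3154 (28.4%) and in WT at 299 (2.70%, exact 95% binomial interval 2.40 to 3.02%). In the background, all nuclear positions recorded in rnh203-K46W and not in all 5 deep libraries, the shares were 29.2% for rnh201-G42S, 19.4% for rnh201-null and 0.724% for WT. All 3 shares stood above the background, and 46.6% of the recurrent positions had no value in any other genotype, against 61.1% of the background. Positions are not replicates, the interval covers counting error only, and no test was made of these shares.

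Detection rose with each further rnh203-K46W library. For rnh201-G42S the share was 28.5% of positions in 1 rnh203-K46W library, 40.4% in 2, 43.2% in 3, 69.9% in 4 and 95.9% in 5. For rnh201-null it was 18.9, 26.0, 27.2, 42.1 and 64.4%. For WT it was 0.669, 1.46, 2.39, 5.68 and 16.4%. The step between 2 and 3 libraries was small in rnh201-G42S and rnh201-null, and the large steps came at 4 and 5. The exclusion of positions in all 5 deep libraries can only lower the shares of rnh201-G42S and rnh201-null at every level.

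**Figure D2:**
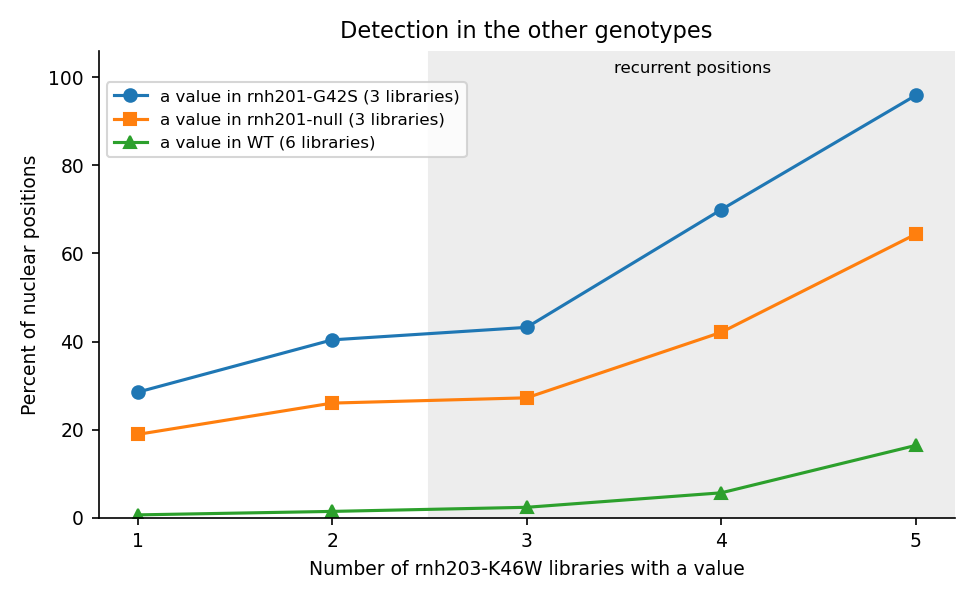
Percent of nuclear positions with a value in at least 1 library of rnh201-G42S, rnh201-null or WT, by the number of rnh203-K46W libraries (1 to 5) that recorded the position; the shaded range holds the recurrent positions. All 3 lines are highest at 5 libraries, at 95.9% in rnh201-G42S, 64.4% in rnh201-null and 16.4% in WT.

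WT detection came from few libraries. WT replicate 6, the deepest, recorded 220 of the 299 positions. A value in a single WT library was found at 288 positions, in 2 at 9 and in 3 at 2, and none of the 11087 was found in more. Besides the 2 positions of chromosomes XIII and IV above, those in most WT libraries included the minus strand of chromosome II at 559272, recorded only by set A libraries of rnh203-K46W. Its values there were 5744, 34358 and 7528 in replicates 1, 2 and 4 (34, 19 and 1065 reads), against 1355 and 2477 in WT replicates 5 and 6 (1 and 7 reads). The plus strand of chromosome IV at 111680 had 6543, 11058, 587, 720.5 and 325 in rnh203-K46W replicates 1 to 5 (38, 6, 11, 100 and 14 reads). In WT it had 3 reads in replicate 1, where it was among the 3 strongest nuclear positions, and 1 read in replicate 6.

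Only 2 of the 73 positions found in every rnh203-K46W library were recorded in no other genotype, both on minus strands. Chromosome X position 35779 had 150, 3213, 372, 622 and 284 in rnh203-K46W replicates 1 to 5, from 1, 2, 8, 99 and 14 reads. Chromosome XIV position 472252 had 156, 3343, 96.9, 163 and 211, from 1, 2, 2, 25 and 10 reads. By median, neither reached the 12 strongest positions, though in replicates 3 and 5 both lay above some of the 12.

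The 5 positions in every rnh203-K46W library that the rule left out had medians of 694 to 5989, within the range of 45.3 to 15759 of the 73. The highest of them, the plus strand of chromosome XII at 204007, had 36236, 52101, 112, 5989 and 24.3 in rnh203-K46W replicates 1 to 5, and 78.8, 13.2 and 1006 in rnh201-G42S replicates 1 to 3. It was the strongest nuclear position of rnh201-G42S replicate 3.

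The share of a library's nuclear signal (summed enrichment factor) that lay on recurrent positions was compared over libraries in the way the rule allows. For each rnh203-K46W library the positions were chosen from the other 4 (a value in at least 3 of them), and each library of another genotype was given its mean over the 5 such lists. The left-out share of signal was 5.39, 9.84, 1.40, 2.47 and 2.54% in rnh203-K46W replicates 1 to 5, against 0.181, 0.211 and 0.186% in rnh201-G42S and 0.0584, 0.0969 and 0.0739% in rnh201-null. Over the 6 WT libraries it was 0.0967% at the lowest, 0.318% at the median and 1.63% at the highest. Every rnh203-K46W library lay above every library of both other mutants, and 4 of 5 lay above all 6 WT libraries. Replicate 3 (1.40%) lay below WT replicate 1 (1.63%), a library of 1058 reads.

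The mean of the 5 rnh203-K46W libraries was 4.33% ± 3.42 (SD, n = 5). Means of the other mutants were 0.193% ± 0.0161 for rnh201-G42S and 0.0764% ± 0.0194 for rnh201-null (SD, n = 3 each), and the WT mean was 0.574% ± 0.607 (SD, n = 6). Against WT the difference was 3.76 percentage points (two-sided exact permutation test, p = 0.00866, adjusted p = 0.0816 over 12 tests). Against rnh201-G42S it was 4.14 points and against rnh201-null 4.25 points (exact permutation p = 0.0357 and adjusted p = 0.0816 each). With 5 and 3 libraries 0.0357 is the smallest p possible. None of the 12 tests passed an adjusted p of 0.05. The lists leave out positions held by all 5 deep libraries of rnh201-G42S and rnh201-null, so the differences against these mutants are not independent of the rule. When positions in any deep library were left out, the difference against WT was 0.219 points, far smaller than over the full lists. It was 0.288 points against rnh201-G42S and 0.278 against rnh201-null, but that rule itself leaves the deep libraries of both mutants no share. The 5 rnh203-K46W values share libraries through their lists and the lists differ in size, with 8964, 10441, 2541, 944 and 1669 positions chosen without replicates 1 to 5.

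Within library sets the direction was the same. The difference in signal share against WT was 5.17 points in set A (3 rnh203-K46W and 3 WT libraries, exact permutation p = 0.1). In set B it was 1.56 points (2 and 3 libraries, exact permutation p = 0.2). Each p is the smallest possible with these numbers of libraries. Within library series 300 the difference was 4.14 points against rnh201-G42S and 4.26 points against rnh201-null, with 1 library of each of these mutants.

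**Figure D3:**
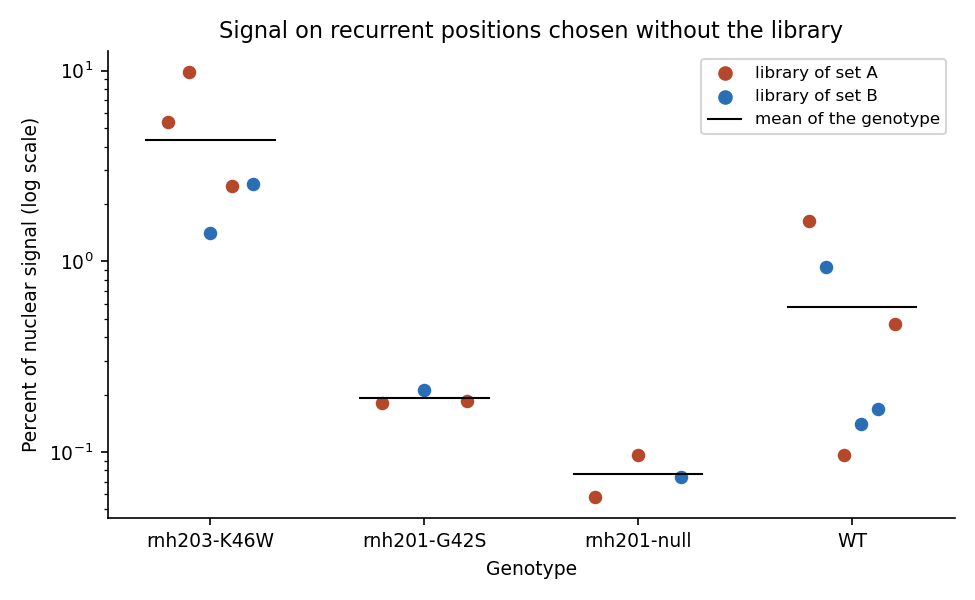
Percent of each library's nuclear signal (log scale) on recurrent rnh203-K46W positions chosen without that library, by genotype; points are libraries coloured by set and bars are genotype means. The rnh203-K46W libraries span 1.40 to 9.84%, above all rnh201-G42S and rnh201-null libraries, while the WT libraries spread from 0.0967 to 1.63%.

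The share of positions, which counts each recorded position once, did not separate rnh203-K46W from WT. The left-out share of positions was 1.07, 4.37, 0.332, 0.0659 and 0.178% in rnh203-K46W replicates 1 to 5, and the WT libraries ranged from 0.102 to 1.39%. The difference was 0.682 points (exact permutation p = 0.563, adjusted p = 0.563), and without replicate 2 it turned to -0.0447. Depth moved with this share: it was highest in the shallowest rnh203-K46W library and lowest in the deepest, and the 2 WT libraries of 1058 and 775 reads were the highest of WT. The part of depth in these differences was not tested.

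On the recurrent positions themselves the other genotypes were compared with each other. The rule had removed positions held by all 5 deep libraries of rnh201-G42S and rnh201-null, so these differences are not independent of it. The recurrent positions held 0.367, 0.435 and 0.338% of the signal in rnh201-G42S, 0.146, 0.204 and 0.156% in rnh201-null, and 0.175 to 1.91% in WT. The rnh201-G42S libraries all lay above the rnh201-null libraries, by 0.211 points on average (exact permutation p = 0.1, the smallest that 3 against 3 allows, adjusted p = 0.133). Against WT, rnh201-G42S differed by -0.506 points (exact permutation p = 0.452, adjusted p = 0.494) and rnh201-null by -0.717 points (exact permutation p = 0.0476, adjusted p = 0.0816). In share of positions the rnh201-G42S mean was 0.189% and the rnh201-null mean 0.130%, against 0.823% in WT. These differences against WT were -0.635 points (exact permutation p = 0.0476) and -0.694 points (exact permutation p = 0.0238), both with an adjusted p of 0.0816. The differences shrank without the libraries under 5000 reads (WT replicates 1 and 2 and rnh201-null replicate 1): the differences in positions were -0.154 points for rnh201-G42S and -0.217 points for rnh201-null, and those in signal -0.0494 and -0.249 points.

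Some recurrent positions were recorded in 1 library set only. The 339 recurrent positions with values in exactly the 3 set A libraries of rnh203-K46W could only arise where replicate 2, with 6322 recorded positions, held a value. They were set beside the 8011 positions held by both set B libraries and 1 set A library, of which 7864 came from the 3 deepest libraries. No recurrent position was confined to set B, which has only 2 rnh203-K46W libraries.

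The 339 set A positions were recorded more often than the 8011 in most libraries of other genotypes. Positions held by replicates 1, 2 and 4 and also by set B had shares near those of the 339: a deep library recorded 92.9% of the 84 positions of replicates 1, 2, 4 and 5 and 97.3% of the 73 found in every library, against 89.4% of the 339. In WT the shares were 10.7, 16.4 and 12.98%. These shares pool libraries of both sets, and the groups differ in the number of rnh203-K46W libraries. They therefore cannot show what absence from set B adds, which was not tested. In rnh201-G42S the 339 had a value at 26.8% in replicate 1 and 80.5% in replicate 3, both set A. The 8011 shared positions had 6.44 and 25.9%. Positions in 1 or 2 rnh203-K46W libraries had 5.22 and 23.0% there. The 8011 thus lay near these, at 1.23 and 1.13 times their share, and the 339 at 5.14 and 3.50 times. In rnh201-G42S replicate 2, of set B, the 339 and the 8011 stood at 16.5 and 16.1%. Both were above the 7.32% of positions in 1 or 2 libraries, at 2.26 and 2.20 times. In rnh201-null the shares were 41.3 and 14.7% in replicate 2 (set A) and 21.2 and 10.8% in replicate 3 (set B). Relative to positions in 1 or 2 libraries, the 339 had 3.29 and 2.49 times the share in these replicates. The 8011 had 1.17 and 1.26 times. In WT replicate 6 (set A) the shares were 11.2% (38 of 339) and 0.936% (75 of 8011). These were 22.8 and 1.90 times the share of positions in 1 or 2 libraries. WT replicate 2, of set B, recorded none of the 339, which allows a share of up to 0.885%, and 8 of the 8011. The other WT libraries and rnh201-null replicate 1 rest on 0 to 12 positions each.

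**Figure D4:**
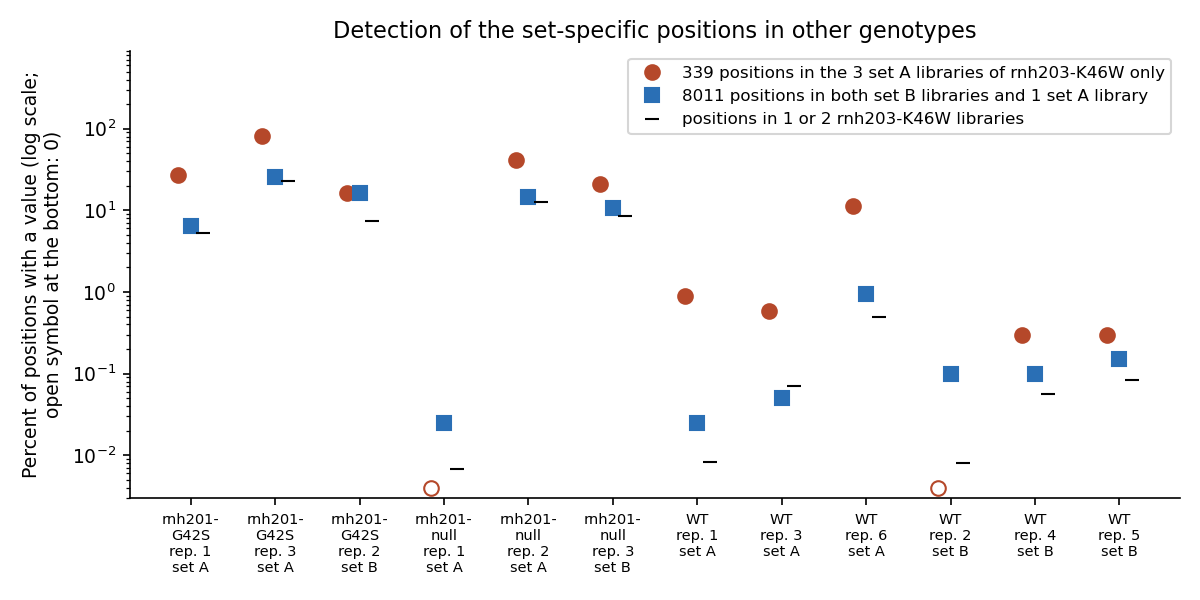
Percent of positions with a value (log scale, open symbols stand for 0) in each library of the other genotypes, for 339 recurrent positions in the 3 set A libraries of rnh203-K46W only (circles), 8011 in both set B libraries and 1 set A library (squares) and positions in 1 or 2 rnh203-K46W libraries (dashes). Circles stand above squares in the set A libraries rnh201-G42S replicate 3 (80.5 and 25.9%) and WT replicate 6 (11.2 and 0.936%). They also do so in the set B library rnh201-null replicate 3 (21.2 and 10.8%). Circles lie close to squares in the set B library rnh201-G42S replicate 2, and stand at 0 in WT replicate 2 and rnh201-null replicate 1.

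Both strands carried recurrent positions almost equally. The plus strand held 5669 and the minus strand 5418, so 51.1% lay on the plus strand (exact 95% binomial interval 50.2 to 52.1%), while positions in 1 or 2 rnh203-K46W libraries split into 898548 on the plus and 898053 on the minus strand. The 73 positions found in every library lay on 14 chromosomes, 34 on the plus and 39 on the minus strand.

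Recurrent positions were spread over all 16 nuclear chromosomes and were denser on the longer ones. Chromosome IV, the longest, held 1688, or 7.22 per 1000 positions recorded in rnh203-K46W, whereas chromosome I, the shortest, held 114, or 3.87 per 1000. Across the 16 chromosomes, Spearman's correlation of this density with chromosome length was 0.95. DNA depth, which enters every ratio and was recovered from the values, ran the other way, with a median of 162 on chromosome IV and 237 on chromosome I and a correlation of -0.98 with length. Both are descriptions over chromosomes of the same libraries.

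A like gradient ran along chromosome arms. Recurrent positions made up 2.94 per 1000 rnh203-K46W positions within 5 kb of a chromosome's end, 3.12 at 5 to 20 kb, 3.64 at 20 to 50 kb, 4.21 at 50 to 100 kb, 5.28 at 100 to 200 kb and 7.52 beyond. The median DNA depth over the same bins fell from 238 at the ends to 166 in the interior. Positions in exactly 2 rnh203-K46W libraries showed the same order, from 37.9 to 57.8 per 1000. The 73 positions found in every library, few in each bin, did not follow this gradient. None of them lay within 5 kb of an end. At 5 to 20 kb lay 9 of the 73, among them the 2 highest. These 9 include near neighbours, 911880, 911881 and 911883 on chromosome XIII and 257595 and 258284 on chromosome VI, so they are not 9 separate sites. The bin of 5 to 20 kb held 141 of the 11087 recurrent positions and 45229 of the 1807688 background positions. Beyond 200 kb lay 33 of the 73 and 7151 of all recurrent positions.

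The density was also taken within classes of DNA depth. On the 10 chromosomes over 600 kb the density was 7.18 per 1000 at a depth under 150, 6.72 at 150 to 180, 5.81 at 180 to 210 and 3.99 at 210 or more. On the 6 shorter chromosomes it was 5.81, 5.70, 4.93 and 4.29 in the same classes. Density therefore fell with depth within both length classes, and long chromosomes were denser in the 3 lower depth classes and not in the highest. What DNA depth contributes to recurrence was not tested.

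**Figure D5:**
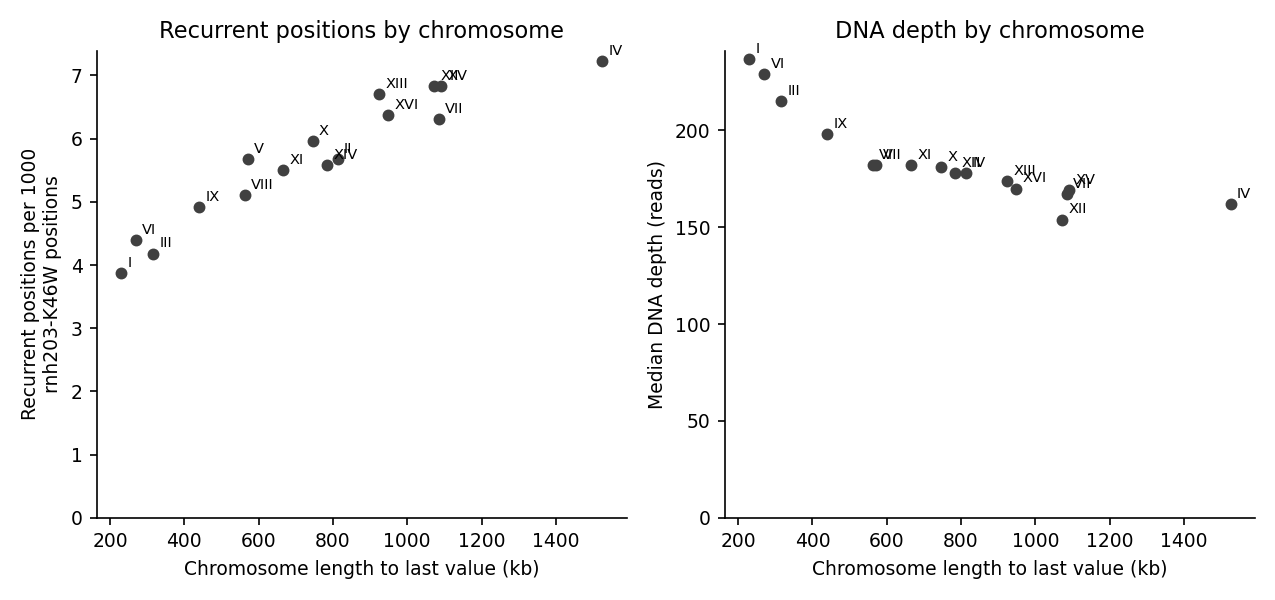
Left, recurrent positions per 1000 rnh203-K46W positions, and right, median DNA depth in reads, each against chromosome length (kb to the last recorded position) with 1 point per chromosome. The density runs between 3.87 on chromosome I and 7.22 on chromosome IV, while the depth is highest on chromosome I.

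Some recurrent positions had close neighbours on their own strand. The median distance to the nearest one on the same strand was 491 bp, 2927 (26.4%) had one within 100 bp and 1006 (9.07%) within 10 bp. There were 158 same-strand pairs 1 bp apart, against a mean of 31.6 pairs per offset at 11 to 20 bp. On opposite strands 26 pairs shared a coordinate, whereas other offsets up to 20 bp had at most 9 pairs and a median of 2. Of the 12055 windows of 1 kb, 6348 (52.7%) held at least 1 recurrent position, at a mean of 0.920 per window. No share for background positions or even placement is given beside these distances and windows.

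Steps of at most 10 bp joined 1006 positions into 456 runs, of which 385 were pairs. The longest run held 7 positions on the plus strand of chromosome XIII between 911879 and 911893, around the strong position 911883. Just before the peak, position 911882 had 288 reads in rnh203-K46W replicate 4 and 20 in replicate 5, and position 911881 had 168 and 6. Position 911880 had 56 and 3 reads, and just after the peak position 911884 had only 11 and 1, against 2987 and 798 at the peak itself. In replicates 4 and 5 the reads thus thinned out over several bases below the peak and dropped at once above it. Replicates 1, 2 and 3 did not show this order. At positions 911880, 911881 and 911882 replicate 1 had 10, 3 and 1 reads. Replicate 2 had 1, 2 and 1 reads there and replicate 3 had 3, 1 and 0. All 7 positions had a value in at least 1 deep library of another mutant, as did 52.9% of all recurrent positions and 38.6% of the background positions above.

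The 5 windows with most recurrent positions differed in kind. The window of chromosome XIII from 911001 to 912000 held 9, of which 8 lay on the plus strand and 3 were found in every rnh203-K46W library, and it held 1.89% of the nuclear signal of replicate 2 and 0.151% of that of replicate 4. The window of chromosome IV from 613001 to 614000 also held 9, on both strands, none found in every library, and 0.00342% of the signal of replicate 4. The window of chromosome VI from 23001 to 24000 held 8, all on the minus strand within 53 bp and all recorded in a deep library of another mutant. The strongest there was position 23873, with 194 reads in replicate 4.

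The windows of chromosome VIII from 173001 to 174000 and of chromosome XI from 208001 to 209000 held 8 each. On chromosome XI the plus strand at 208984 stood out in replicate 1, with an enrichment factor of 22485 from 149 reads, and had 1966, 107 and 387 in replicates 3, 4 and 5, with no value in replicate 2. The ribosomal DNA region of chromosome XII, a repeated array, held 6 recurrent positions among 238 recorded in rnh203-K46W. This share is above that of the whole chromosome, 1059 among 155022, but rests on 6 positions.

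In rnh203-K46W the signal on recurrent positions, which the rule itself selects for, was 11.5, 22.4, 7.97, 6.91 and 10.1% of the nuclear total in replicates 1 to 5. It was concentrated: the 100 strongest recurrent positions carried 50.03, 43.7, 22.8, 34.9 and 36.6% of it in replicates 1 to 5. More than 1 read was held by 62.1% of the recurrent positions recorded in replicate 4 and by 16.5% of all nuclear positions of that library. In replicate 2 these shares were 19.96 and 5.03%.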

How the data were processed

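Ribose-seq was deposited for 17 libraries of 4 genotypes, with whole-genome sequencing of each genotype. Per the submitters' processing notes and the design text, the authors trimmed reads with cutadapt, aligned them to sacCer2 with Ribose-Map and filtered artifacts with its Coordinate module and custom scripts; versions are not given in the sources used here. The values the authors deposited form a ratio, the normalized enrichment factor per position and strand, empty where a library recorded nothing. How the authors normalized this ratio, and whether duplicate reads were collapsed, is not given in the sources used here.

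The 8216036 rows were merged by chromosome, end coordinate and strand, because a position with different read numbers fills several rows. The ratio behaved as a library constant times reads over a DNA depth shared by a genotype's libraries. Read numbers were recovered as the whole number nearest to the local depth (median of 51 positions) over the depth implied by 1 read that gave a whole depth. At least 99.8% of nuclear values gave a whole depth within 0.01. A whole depth was also used to pick the read number, so this share cannot by itself show that higher read numbers are right. The recovery was tested on simulated data built from the same form of ratio. Reads carry no molecular identifiers here, so intervals and limits cover counting error only.

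Titles gave each library's genotype; replicate numbers follow accession order and pair nothing. Library sets were defined from mitochondrial profiles in 100-bp bins, which hold no nuclear position. One value per library was tested by two-sided exact permutation of the difference of means, with Benjamini-Hochberg adjustment over 12 tests (Python 3.11.15, numpy 2.4.6, pandas 2.3.3, scipy 1.17.1). Positions named are the 12 found in every rnh203-K46W library with the highest median, the 5 in most WT libraries, the 5 windows of 1 kb with most members and the positions in every rnh203-K46W library and no other genotype. The neighbours of the chromosome XIII position and the 5 positions left out by the rule were chosen after their values were seen. The members and lists were chosen with earlier results of these data known. Alternatives changed the number of libraries required, the exclusion of deep positions, the cap on values, the ribosomal DNA region and the libraries included.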

Additional observations from a re-analysis of the deposited data

Results flagged for a closer look

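In rnh203-K46W replicate 2, 14.6% of the recorded nuclear positions lay on recurrent positions, a share far from those of the other 4 rnh203-K46W libraries (0.907 to 4.36%). The share on positions chosen without that library was likewise apart, at 4.37% against 0.0659 to 1.07% in the other 4. Replicate 2 is the shallowest rnh203-K46W library, with 7278 nuclear reads, and the part of depth in these shares was not tested. Of 20 groups of values examined in this way 2 stood out. Both are this library on related measures, and the first used positions chosen partly with its own values. The 2 are therefore not independent, and their number cannot be set against chance.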

How the results depend on the processing

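The number of recurrent positions depended on the rule. It was 795 when at least 4 rnh203-K46W libraries were required, 108036 at 2, 5225 when positions in any deep library were left out and 1749 when only values of at least 2 reads counted. It ranged from 944 to 10441 when 1 rnh203-K46W library was left out, lowest without replicate 4, with 2541 without replicate 3 and 1669 without replicate 5. The share with a WT value was 6.67% at 4 libraries, 1.59% at 2 and 1.19% without any deep position, and ranged from 0.794% (without WT replicate 6) to 2.60% when 1 WT library was left out.

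None of the 12 differences passed an adjusted p of 0.05 in any alternative, and in 3 results the direction turned. That of rnh201-G42S minus rnh201-null turned to -0.0232 points in positions and -0.0254 points in signal when positions in any deep library were left out, a rule that uses those libraries' own values. The left-out share of positions of rnh203-K46W against WT was -0.190 points within set B. With 1 library left out at a time it ranged from -0.0447 to 0.856, lowest without rnh203-K46W replicate 2, against 0.287 to 1.12 over rnh201-G42S and 0.309 to 1.15 over rnh201-null. The left-out share of signal ranged from 1.96 to 3.97 over WT, 2.13 to 4.15 over rnh201-G42S and 2.15 to 4.26 over rnh201-null, all in the same direction. When positions in any deep library were left out it was 0.219 over WT (exact permutation p = 0.0952), 0.288 over rnh201-G42S and 0.278 over rnh201-null. That rule leaves the deep libraries of both mutants no share, so only the value over WT is free of it. With the highest values capped the left-out share of signal was 2.29 over WT, with an exact permutation p of 0.0649. The share of positions ranged from -0.763 to -0.295 for rnh201-G42S minus WT, -0.822 to -0.314 for rnh201-null minus WT and 0.0186 to 0.0786 for rnh201-G42S minus rnh201-null. The share of signal ranged from -0.648 to -0.300, from -0.859 to -0.359 and from 0.0578 to 0.232 in the same comparisons. Without libraries under 5000 reads the share of positions was -0.154 for rnh201-G42S minus WT and -0.217 for rnh201-null minus WT, and the share of signal -0.0494 and -0.249. Within library series 200, rnh201-G42S minus WT was -0.134 in positions and -0.0285 in signal. The same direction was found on the log2 scale, an alternative chosen after seeing the data because the shares are skewed. No paired analysis was possible because replicate numbers were given in accession order and pair no libraries. Depth limits what can be said of WT, whose libraries held at most 38576 nuclear reads.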
